A study of Arabidopsis thaliana with 41 samples.

Results

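The 10 genes described here were grouped as osmotic stress genes of Arabidopsis thaliana, and all 10 had a row among the 21164 loci of the array table. They were taken by locus identifier: LEA14 (AT1G01470), LEA7 (AT1G52690), LEA4-5 (AT5G06760), RD29B (AT5G52300), RD20 (AT2G33380), RD22 (AT5G25610), ERD7 (AT2G17840), GOLS1 (AT2G47180), GOLS2 (AT1G56600) and DAA1 (AT1G64110). Their transcripts were measured in rosette leaves of Ag-0, Ull2-5, Tamm-2, Omo2-3, Got-22, Eden-1 and Bil-5, which are 7 natural accessions, each under dry and wet soil. Dry pots were brought down in daily steps over 5 days to about 50% of the available water, and wet pots were kept near 90%. All plants shared a 10 h photoperiod with 23 °C by day and 18 °C by night, and no transgene or mutation is named in the labels. There were 14 groups of 3 arrays, apart from Ag-0 in dry soil, which had 2, for a total of 20 dry and 21 wet arrays. Other accessions of the study were not analysed here.

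Late embryogenesis abundant (LEA) proteins are small hydrophilic proteins that build up as seeds dry and in vegetative tissue short of water, where they are thought to protect membranes and enzymes. RD ("responsive to desiccation") and ERD ("early responsive to dehydration") genes were named after their induction when plants were dried quickly, and many of them answer to abscisic acid, the hormone of water deficit. Galactinol synthases make galactinol, the galactosyl donor for the raffinose family of sugars, which are osmoprotectants. Genes of these families are widely used as reporters of water deficit. DAA1 encodes an ATPase and belongs to none of these families. The crossed design asks which of the genes described here respond to mild and gradual drying. It also asks whether accessions differ in that response, and whether the levels of these genes differ between accessions.

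Values are log2 array signals, in which a difference of 1 is a doubling, and they ran between 3.35 and 14.30 over the table. A value is called near the array floor here when it lay under the 25th percentile of all loci on its array, which was between 4.32 and 4.47. Leaf markers were high: the 2 measured mesophyll markers of 6 listed had group means between 12.39 and 13.15, while 6 of 7 seed markers and 2 of 3 flower markers were near the floor on all arrays. Of the 5 measured root markers only 1 was near the floor on all arrays, although the group means of that list were low, at 4.32 to 4.52 on dry arrays and 4.36 to 4.51 on wet arrays. Phloem markers moved with drying, since all 4 fell, with group means of 8.22 to 9.07 on dry arrays and 8.79 to 9.33 on wet arrays; 1 of 4 guard cell markers fell and 1 of the 2 mesophyll markers rose. In whole leaves, fewer cells of a type and less RNA per cell cannot be told apart, and the part of cell makeup in the changes below was not tested. Bil-5 dry replicate 3, Bil-5 wet replicate 2 and Tamm-2 dry replicate 3 stood apart from the rest by limma's array weights, which were under 0.5.

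Drying changed 4 of the 10 genes as a mean over the 7 accessions. DAA1 rose, and RD20, RD22 and GOLS1 fell, by limma with Benjamini-Hochberg adjustment over all loci at 0.05. Of all loci, 12.2% were called up, 11.5% down and 23.7% in either direction, beside 1, 3 and 4 of the 10 genes. The median log2 change of the 10 genes was 0.05, against -0.00019 over all loci, and their median absolute change was 0.44, against 0.08 over all loci. The genes were chosen with earlier results of these data known, and the medians over all loci include loci near the floor. These comparisons are therefore descriptions only. None of LEA14, LEA7, LEA4-5 and RD29B passed. The drying change had 1 sign in all 7 accessions for 4 of the 10 genes, against 17.4% of loci, and in at least 6 accessions for 6 of the 10, against 37.8% of loci. Phloem markers fell in the same contrast, with a median of -0.36, and their part in the 3 falls was not tested. Without the 3 arrays of low weight the same 4 genes passed: DAA1 at 1.37 (limma adjusted p = 3.21e-07), RD22 at -0.61 (0.000727), RD20 at -0.85 (0.00422) and GOLS1 at -0.64 (0.0263). The plot of drying changes by accession shows the rise of DAA1 beyond the others.

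**Figure D1:**
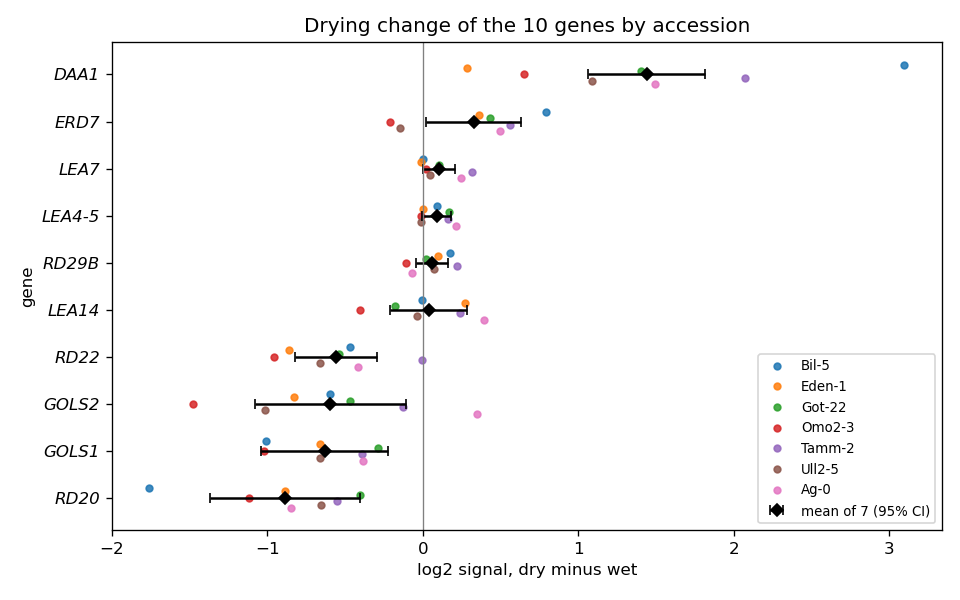
Drying change of the 10 genes, as the log2 signal on dry arrays minus that on wet arrays; small points are the 7 accessions, black diamonds their mean, and bars the 95% confidence interval from limma. DAA1 lies at 1.44 with all 7 accessions above 0, while RD20 at -0.89, GOLS1 at -0.63 and RD22 at -0.56 have all 7 below 0.

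DAA1 encodes an ATPase of the AAA family and takes its name from its activation by the pollen regulator DUO1. It was the gene with the clearest separation of the groups. Its log2 signal was 7.60, 7.69 and 6.67 in dry Bil-5, against 4.08, 4.32 and 4.28 in wet Bil-5. Tamm-2 read 6.23, 4.89 and 8.15 in dry soil, against 4.25, 4.35 and 4.46 in wet soil. Got-22 gave 6.44, 5.52 and 5.57 in dry soil, against 4.30, 4.37 and 4.66 in wet soil. In these accessions every dry array lay above every wet array, but the dry Tamm-2 arrays differed widely among themselves.

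Ag-0 had a DAA1 signal of 5.07 and 6.51 in dry soil, against 4.20, 4.38 and 4.31 in wet soil. In Ull2-5 the dry values were 4.98, 6.28 and 5.14, against wet values of 4.47, 4.19 and 4.49. Omo2-3 read 5.87, 4.57 and 4.59 in dry soil, against 4.29, 4.39 and 4.40 in wet soil. Eden-1 showed the narrowest gap, with 4.57, 4.67 and 4.71 in dry soil, against 4.34, 4.49 and 4.26 in wet soil. Dry and wet arrays thus did not overlap in any of the 7 accessions, a pattern shared by 24 loci, 0.113% of all loci. A mean change above 0 in all 7 accessions was seen at 9.79% of loci and, of the 10 genes, for DAA1.

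As a mean over accessions DAA1 was higher by 1.44 ± 0.18 (SE) on dry arrays, a 2.71-fold difference (limma adjusted p = 2.19e-06), and ranked 10 among all loci by size of rise. The wet signal was near the floor on 15 of 21 arrays and the dry signal on 0 of 20, which can understate the fold. Within single accessions, the rise passed in Bil-5 (3.10 ± 0.48, limma adjusted p = 0.000628), where 2.86% of loci were called up, and in Tamm-2 (2.07 ± 0.48, limma adjusted p = 0.0269), where 0.35% were. The Tamm-2 call was not stable. It ended without dry replicate 3, where the change dropped to 1.21 (limma adjusted p = 0.232). The same held without the arrays of low weight (1.21, 0.168) and with array weights (1.61, 0.146). It also ended without wet replicate 1 (2.02, 0.135) or wet replicate 2 (2.07, 0.0903), though the change hardly moved. Leaving Eden-1 out of the shared fit ended it too, at the same change (0.0517).

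**Figure D2:**
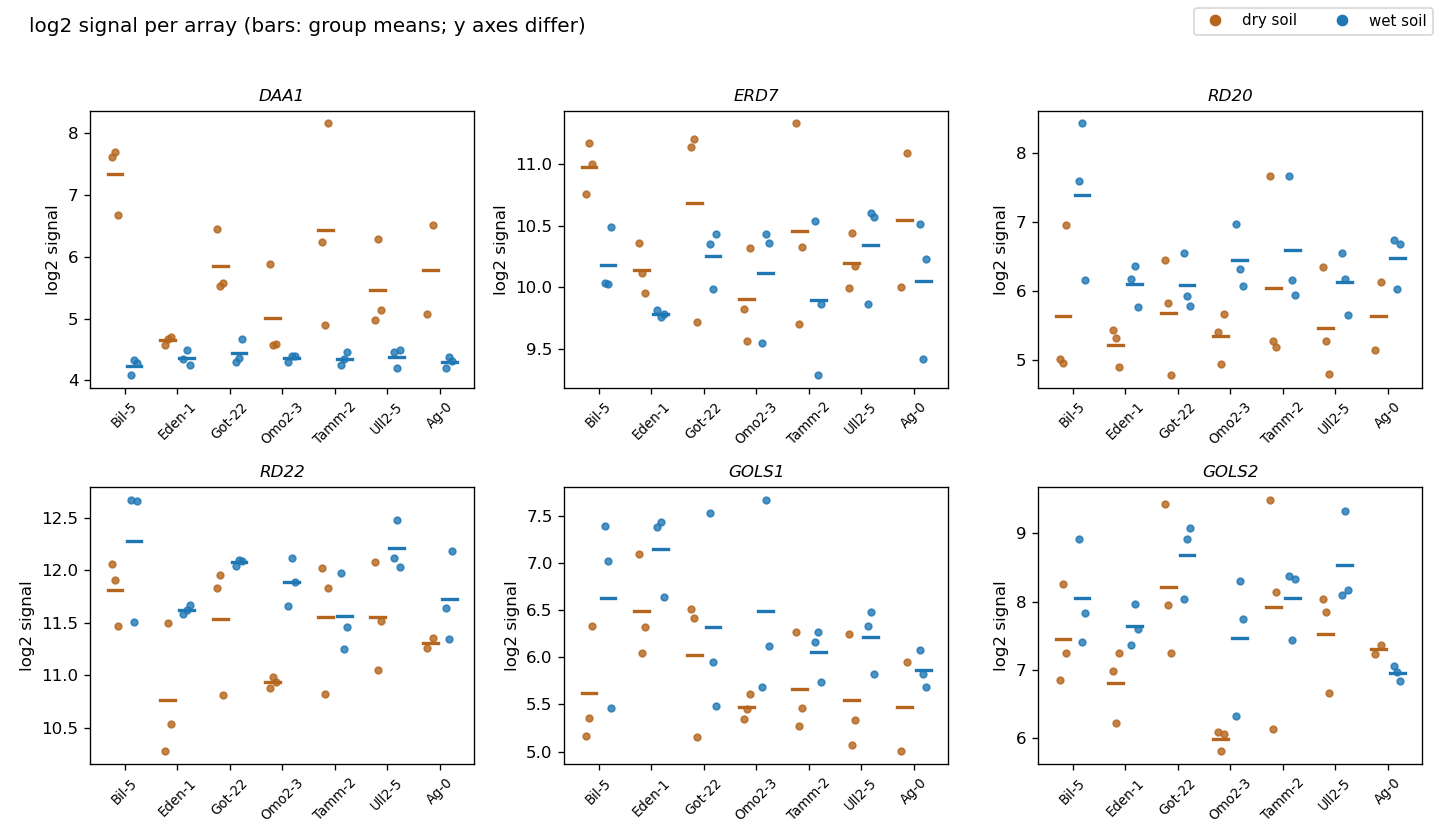
Log2 signal of 6 genes on each array by accession, with dry soil in brown and wet soil in blue; short bars are group means and each panel has its own y axis. For DAA1 all dry points lie above all wet points of the same accession, while for RD20, RD22 and GOLS1 dry means lie lower than wet means, nearly level for RD22 in Tamm-2, and single points overlap.

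RD20 encodes a caleosin, a calcium-binding peroxygenase associated with lipid droplets, and is known as a strongly drought-induced gene. In these leaves it fell. Bil-5 had RD20 signals of 5.01, 4.95 and 6.96 in dry soil, against 7.60, 8.44 and 6.15 in wet soil. Omo2-3 had 5.40, 4.94 and 5.67 in dry soil, against 6.97, 6.32 and 6.07 in wet soil. For Eden-1 the dry values were 5.43, 5.32 and 4.89, against wet values of 6.17, 6.36 and 5.77. Dry and wet arrays did not overlap in Omo2-3 and Eden-1, while in Bil-5 dry replicate 3 stood above wet replicate 3. Dry lay below wet without overlap at 9.51% of loci in Omo2-3 and 7.63% in Eden-1.

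In Ag-0, RD20 read 5.14 and 6.13 in dry soil, against 6.73, 6.03 and 6.68 in wet soil. Ull2-5 read 6.34, 5.27 and 4.78 in dry soil, against 6.56, 6.17 and 5.65 in wet soil. The groups overlapped in both. Tamm-2 gave 7.68, 5.26 and 5.18 in dry soil, against 7.67, 6.16 and 5.94 in wet soil, and Got-22 gave 6.45, 5.83 and 4.77 in dry soil, against 6.55, 5.93 and 5.78 in wet soil. In Tamm-2 replicate 1 was the highest array of both water levels.

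RD20 averaged 5.57 ± 0.78 on the 20 dry arrays and 6.46 ± 0.71 on the 21 wet arrays (SD), where the SD includes differences between accessions. The fall was 0.89 ± 0.24 (SE) on the log2 scale, with a signal 1.85-fold lower in dry soil (limma adjusted p = 0.00592), and the sign was the same in all 7 accessions. A change below 0 in all 7 accessions was seen at 7.57% of loci and for 3 of the 10 genes. Within a single accession the largest difference, -1.76 ± 0.61 in Bil-5, did not pass (limma adjusted p = 0.101).

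RD22 encodes a secreted protein with a BURP domain, and its induction by drying and abscisic acid is known to go through the factors MYC2 and MYB2. It fell too, at a bright signal on every array. Omo2-3 had RD22 at 10.88, 10.99 and 10.93 in dry soil, against 11.66, 12.12 and 11.89 in wet soil. Eden-1 read 10.27, 11.49 and 10.53 in dry soil, against 11.58, 11.62 and 11.67 in wet soil. In Got-22 dry arrays had 11.83, 11.96 and 10.81, against 12.04, 12.10 and 12.09 in wet arrays. No overlap occurred in these 3 accessions, and the share of loci with dry below wet and no overlap in at least 3 accessions was 6.44%.

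Bil-5 had RD22 signals of 12.06, 11.91 and 11.47 in dry soil, against 12.68, 11.51 and 12.66 in wet soil. Ull2-5 had 12.08, 11.05 and 11.52 in dry soil, against 12.12, 12.48 and 12.03 in wet soil. Both overlapped through 1 array, wet replicate 2 in Bil-5 and dry replicate 1 in Ull2-5. Ag-0 read 11.26 and 11.35 in dry soil, against 11.64, 11.35 and 12.18 in wet soil. Tamm-2 read 12.02, 10.82 and 11.83 in dry soil, against 11.98, 11.25 and 11.46 in wet soil, so that its mean difference was 0.00 on the log2 scale.

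Over accessions RD22 stood at 11.35 ± 0.55 on the 20 dry arrays and 11.91 ± 0.40 on the 21 wet arrays (SD). The fall was 0.56 ± 0.13 (SE) on the log2 scale (limma adjusted p = 0.00196), a signal 1.47-fold lower in dry soil, and 7 of 7 accession differences were below 0, that of Tamm-2 by only -0.0026 ± 0.34. No single accession passed. The lowest limma adjusted p was 0.374 in Ull2-5 (-0.66 ± 0.34), and the largest difference was in Omo2-3 (-0.96 ± 0.34, limma adjusted p = 0.449).

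GOLS1 and GOLS2 encode galactinol synthases, the first committed step of raffinose sugar synthesis; both are known as drought-induced, and GOLS1 also as heat-induced. GOLS1 read 5.16, 5.36 and 6.33 in dry Bil-5, against 7.39, 7.02 and 5.46 in wet Bil-5. Omo2-3 read 5.35, 5.45 and 5.61 in dry soil, against 5.68, 7.67 and 6.12 in wet soil. The Omo2-3 groups did not overlap, as at 9.51% of loci with dry below wet there, and 1 wet array stood far above the others. In Eden-1 the dry values were 7.09, 6.05 and 6.32, against wet values of 7.38, 7.43 and 6.63.

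Ull2-5 gave a GOLS1 signal of 6.25, 5.07 and 5.34 in dry soil, against 6.33, 6.48 and 5.83 in wet soil. Tamm-2 gave 6.26, 5.27 and 5.46 in dry soil, against 6.16, 6.27 and 5.74 in wet soil. Ag-0 had 5.00 and 5.95 in dry soil, against 6.08, 5.82 and 5.69 in wet soil. Got-22 had 6.52, 6.41 and 5.15 in dry soil, against 7.53, 5.95 and 5.48 in wet soil. All of these groups overlapped, though each mean was lower in dry soil.

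The mean of GOLS1 was 5.77 ± 0.60 on the 20 dry arrays and 6.39 ± 0.73 on the 21 wet arrays (SD). Its fall of 0.63 ± 0.20 (SE) on the log2 scale, 1.55-fold lower in dry soil, passed the threshold (limma adjusted p = 0.0205). The call ended without Omo2-3 (limma adjusted p = 0.0584) or without Ag-0 dry replicate 2 (0.0547).

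GOLS2 was also lower on dry arrays in most accessions, but its arrays varied more than those of GOLS1 and it did not pass. Omo2-3 read 6.09, 5.81 and 6.07 in dry soil, against 6.33, 8.31 and 7.75 in wet soil. Ull2-5 read 8.04, 7.85 and 6.67 in dry soil, against 8.09, 9.34 and 8.18 in wet soil. Eden-1 had 6.98, 6.22 and 7.25 in dry soil, against 7.37, 7.96 and 7.60 in wet soil. In these 3 accessions no dry array reached the lowest wet array, and 6.44% of loci had that pattern in at least 3 accessions.

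Ag-0 went the other way for GOLS2, with 7.24 and 7.36 in dry soil, against 7.06, 6.97 and 6.83 in wet soil. Bil-5 had 6.86, 8.27 and 7.25 in dry soil, against 8.91, 7.41 and 7.84 in wet soil. Got-22 had 9.44, 7.95 and 7.25 in dry soil, against 8.04, 8.91 and 9.09 in wet soil. The widest spread was in dry Tamm-2, which read 9.50, 6.13 and 8.14, against 8.38, 7.44 and 8.33 in wet Tamm-2. The pooled SD within groups was 0.79 for GOLS2 and 0.66 for GOLS1.

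The mean GOLS2 difference was -0.59 ± 0.24 (SE), with a 95% confidence interval of -1.08 to -0.11 and 6 of 7 accessions below 0 (limma adjusted p = 0.0695). It passed in 8 of 56 other settings, among them the fit with array weights (limma adjusted p = 0.0318) and the fit without Ag-0 (-0.75, 0.0432). The drying changes of GOLS1 and GOLS2 differed by -0.04 ± 0.44 (SD over 7 accessions), and an exact two-sided sign-flip permutation test over accessions gave p = 0.828. GOLS1 minus GOLS2 was above 0 in 4 accessions, up to 0.46 in Omo2-3, and lowest at -0.73 in Ag-0. In 7 accessions the smallest p this test allows is 0.0156.

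ERD7 encodes a lipid-binding protein with a senescence and dehydration domain. Bil-5 had ERD7 signals of 10.76, 11.18 and 11.00 in dry soil, against 10.03, 10.03 and 10.49 in wet soil. Eden-1 had 10.36, 10.12 and 9.95 in dry soil, against 9.82, 9.76 and 9.78 in wet soil. Dry arrays lay above wet arrays without overlap in these 2 accessions, and loci with that pattern made up 8.92% of the table in Bil-5 and 7.95% in Eden-1.

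In Got-22, ERD7 read 11.14, 11.21 and 9.71 in dry soil, against 10.36, 9.99 and 10.43 in wet soil. Tamm-2 read 11.33, 9.70 and 10.33 in dry soil, against 10.54, 9.29 and 9.86 in wet soil. Ag-0 read 10.00 and 11.09 in dry soil, against 10.51, 9.42 and 10.23 in wet soil. These dry groups spanned more than 1 log2 unit each. Omo2-3 had 9.82, 9.56 and 10.32 in dry soil, against 9.55, 10.43 and 10.36 in wet soil, and Ull2-5 had 9.99, 10.44 and 10.17 in dry soil, against 9.87, 10.61 and 10.58 in wet soil. The mean difference was 0.33 ± 0.15 (SE; 95% confidence interval 0.02 to 0.63; limma adjusted p = 0.117), with 5 of 7 accessions above 0. It passed with array weights (0.38, limma adjusted p = 0.0418) and without Got-22 dry replicate 3 (0.39, 0.0359).

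Of the LEA genes, LEA14 was bright on every array, and LEA7 and LEA4-5 were near the floor. LEA14, a LEA protein with a folded rather than disordered structure, was between 10.39 and 11.81 over the 41 arrays. It averaged 11.16 ± 0.46 on the 20 dry arrays and 11.14 ± 0.37 on the 21 wet arrays (SD), and the difference was 0.04 ± 0.12 (SE; 95% confidence interval -0.21 to 0.29; limma adjusted p = 0.871). Eden-1 was the 1 accession without overlap, with LEA14 at 11.15, 11.12 and 10.97 in dry soil, against 10.83, 10.81 and 10.78 in wet soil. Dry lay above wet without overlap at 7.95% of loci in Eden-1. The accession means differed in sign, between -0.40 in Omo2-3 and 0.39 in Ag-0.

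LEA7 was near the floor on 18 of 20 dry and 21 of 21 wet arrays, and LEA4-5 on 16 of 20 dry and 21 of 21 wet arrays. Both belong to the disordered LEA proteins that are abundant in dry seeds. The exceptions were single dry arrays. LEA7 reached 4.95 in dry Tamm-2 replicate 3 and 4.50 in dry Ag-0 replicate 3. LEA4-5 reached 4.75 in dry Tamm-2 replicate 1, 4.60 in dry Got-22 replicate 1, 4.49 in dry Ag-0 replicate 3 and 4.38 in dry Eden-1 replicate 2, against a highest wet value of 4.29. The mean difference was 0.10 ± 0.05 (SE) for LEA7 (limma adjusted p = 0.143) and 0.09 ± 0.05 for LEA4-5 (limma adjusted p = 0.19), and LEA7 passed with array weights (0.10, limma adjusted p = 0.0475) and without Tamm-2 dry replicate 2 (0.12, 0.0494). Their drying changes differed by 0.02 ± 0.08 (SD over 7 accessions), and the exact sign-flip permutation test gave p = 0.641.

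RD29B, whose promoter is a common reporter of abscisic acid signalling, had values between 4.49 and 5.22 on the 41 arrays, which lay low but over the floor percentile throughout. The signal was 4.81 ± 0.19 on the 20 dry arrays and 4.75 ± 0.11 on the 21 wet arrays (SD), with a difference of 0.06 ± 0.05 (SE; 95% confidence interval -0.04 to 0.16; limma adjusted p = 0.463). The 3 highest arrays were single dry arrays, Bil-5 replicate 3 at 5.22, Tamm-2 replicate 1 at 5.20 and Ull2-5 replicate 1 at 5.12. RD29A (AT5G52310), its neighbour in the genome and a gene known to respond to cold and osmotic stress as well, had a difference of -0.14 ± 0.26 (SE; limma adjusted p = 0.778). The drying change of RD29B exceeded that of RD29A by 0.19 ± 0.56 (SD over 7 accessions), and the exact sign-flip permutation test gave p = 0.422. All 3 of these pairwise tests had an adjusted p of 0.828.

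**Figure D3:**
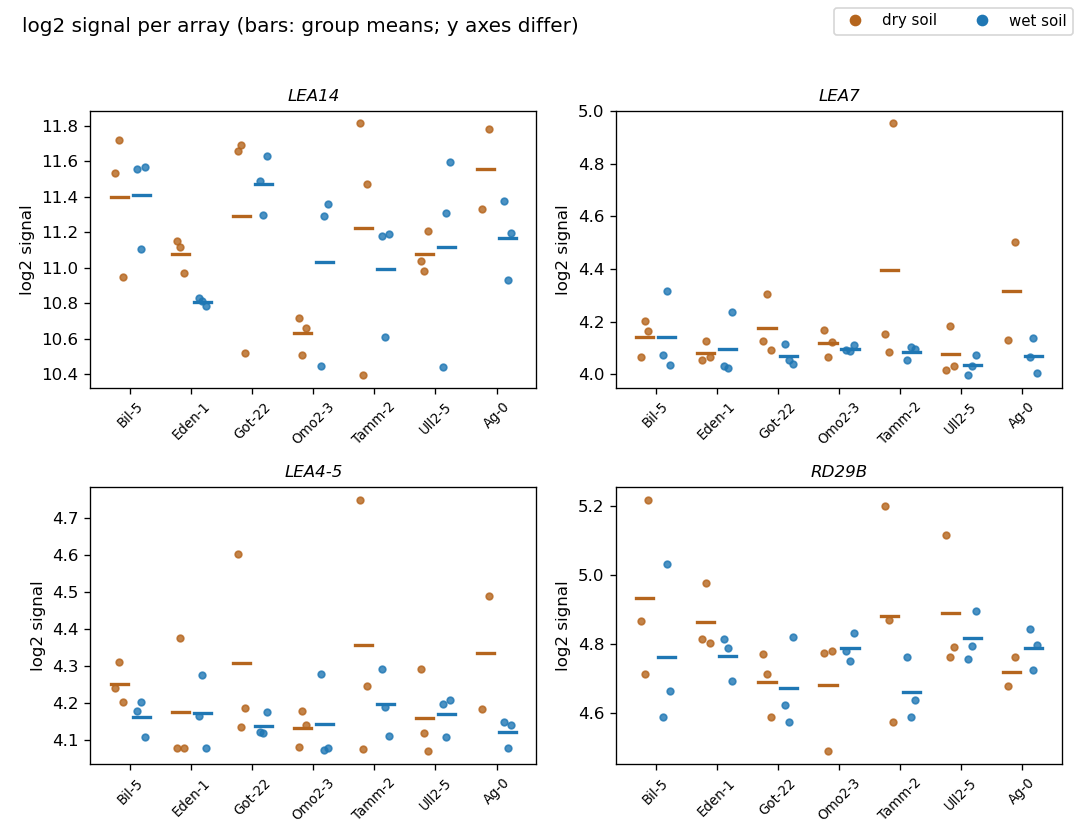
Log2 signal of the 3 LEA genes and RD29B on each array by accession, with dry soil in brown and wet soil in blue; short bars are group means and each panel has its own y axis. LEA14 overlaps between dry and wet soil in all accessions except Eden-1, and the highest points of LEA7, LEA4-5 and RD29B are single dry arrays.

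Whether the drying change differed between accessions was asked with limma's moderated F test, and 0 of the 10 genes passed. At an unadjusted p under 0.05 there was 1, DAA1, whose limma adjusted p was 0.56. Of all loci 6 passed (0.0284%), and 5.88% were under an unadjusted p of 0.05. The DAA1 changes were between 0.28 ± 0.48 in Eden-1 and 3.10 ± 0.48 in Bil-5 (SE). That SE comes from the spread shared by all groups, not from the accession's own arrays. The SD of DAA1 within dry groups was 0.07 in Eden-1 and 1.64 in Tamm-2. Bil-5 minus Eden-1 was 2.81 ± 0.68 (limma adjusted p = 0.266), and 0 of the 21 pairs of accessions passed for any of the 10 genes, against 0.00855% over all loci and pairs. The F statistic of DAA1 was 3.80, and it moved when single arrays or accessions were left out. It rose to 6.91 without Tamm-2 dry replicate 2, 6.06 without Tamm-2 dry replicate 3 and 7.78 without Tamm-2. It fell to 1.62 without Bil-5. None of these passed, and the lowest limma adjusted p over the settings tried was 0.0673, with array weights.

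Of the 70 combinations of gene and accession, 2 were called, both for DAA1, against 1.1% of all such combinations in the table. At an unadjusted p under 0.05 there were 11 of 70, against 12.1% of the table. Bil-5 had 2.86% of loci called up and 1.33% called down, Tamm-2 had 0.35% and 0.907%, and Ull2-5 had 0.529% and 0.879%. The shares were lower elsewhere, at 0.213% up and 0.208% down for Ag-0, 0.0945% and 0.203% for Eden-1, 0.0567% and 0.0378% for Got-22, and 0 loci for Omo2-3. Outside DAA1 no gene was called in any of them as reported. With array weights RD22 was called lower in dry soil in Eden-1 (-1.10, limma adjusted p = 0.0257) and Omo2-3 (-1.03, 0.0305), and GOLS2 in Omo2-3 (-1.79, 0.0381). RD20 was called lower in Bil-5 without dry replicate 3 (-2.42, limma adjusted p = 0.0225) or wet replicate 3 (-2.38, 0.0337).

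Genes whose dry and wet arrays did not overlap were counted in each accession, with dry above and then dry below. They were 2 and 0 of the 10 in Bil-5 (8.92% and 7.42% of loci), 3 and 3 in Eden-1 (7.95% and 7.63%), and 1 and 1 in Got-22 (6.78% and 8.01%). In Omo2-3 there were 1 and 4 (7.47% and 9.51%), in Tamm-2 1 and 0 (7.08% and 8.1%), in Ull2-5 1 and 1 (10% and 9.57%), and in Ag-0 3 and 0 (15.3% and 14%). By sign alone, Omo2-3 had 8 of 10 genes lower in dry soil (53.5% of loci) and Ull2-5 had 7 (49% of loci). The count was 5 in Bil-5 (51%), Eden-1 (49.6%) and Got-22 (51.5%), and 4 in Tamm-2 (44.4%) and Ag-0 (49.4%). The 4 without overlap in Omo2-3 were RD20, RD22, GOLS1 and GOLS2, but none of the 10 passed there. Limma called 0 loci in Omo2-3, with 8.02% under an unadjusted p of 0.05, and 2 of the 10 genes were among those, RD22 and GOLS2.

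Levels over both soils differed between accessions for 1 of the 10 genes, GOLS2 (limma F test, adjusted p = 0.0267), where 31.4% of loci passed. The order of GOLS2 was Got-22 (8.45), Ull2-5 (8.03), Tamm-2 (7.99), Bil-5 (7.76), Eden-1 (7.23), Ag-0 (7.13) and Omo2-3 (6.73), as log2 means of the dry and wet means. Of the 21 pairs only the extremes, Got-22 minus Omo2-3, passed (1.72 ± 0.44, SE; limma adjusted p = 0.0111; 8.35% of loci passed in that pair, and 8.25% over all pairs), so no neighbours in this order differed beyond their spread. The call for GOLS2 ended without Omo2-3 (limma adjusted p = 0.156), Got-22 (0.0871) or Eden-1 (0.0574), and without Omo2-3 wet replicate 1 (0.0612), Omo2-3 dry replicate 2 (0.0521) or Got-22 wet replicate 3 (0.0511). On wet arrays alone 0 of the 10 genes passed, against 14.7% of loci, with GOLS2 at a limma adjusted p of 0.125, and on dry arrays alone 0 passed, against 9.27% of loci.

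DAA1 (limma adjusted p = 0.0504) and RD22 (0.0593) lay just outside the threshold of the accession test, and passed it in 16 (DAA1) and 13 (RD22) of 55 other settings. For RD22, Bil-5 had the highest mean (12.05) and Eden-1 the lowest (11.20), and that pair passed (0.85 ± 0.24, SE; limma adjusted p = 0.0132), where 15.3% of loci did. DAA1, averaged over both soils, was also highest in Bil-5 (5.78) and lowest in Eden-1 (4.50), and the pair passed (1.27 ± 0.34 SE, limma adjusted p = 0.00906). That order did not hold in wet soil. Dry means were 7.32 in Bil-5 and 4.65 in Eden-1, but wet means were 4.23 in Bil-5, the lowest of all accessions, and 4.36 in Eden-1. Dry group means of DAA1 ranged over 2.68 log2 units, against 0.21 for wet group means, all of which were near or just over the floor. A difference limited to dry soil was not shown. The limma F test between accessions on dry arrays alone did not pass for DAA1 (limma adjusted p = 0.118), nor did its interaction (0.56). GOLS1 was higher in Eden-1 (6.82) than the mean of the other accessions (5.95), by 0.87 ± 0.28 (SE; limma adjusted p = 0.0291), with 10.7% of loci called higher in Eden-1. The F test over all accessions did not pass for GOLS1 (limma adjusted p = 0.212).

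The genes most like each member were named by Pearson's r over the 14 group means, as a description without a test, since all means share the same arrays. DAA1 was most like ARC5 (r = 0.946), FADA (0.945) and CRR21 (0.944), whose drying changes were 0.55, 0.38 and 0.75 on the log2 scale. ARC5 acts in chloroplast division, FADA is a plastid fatty acid desaturase and CRR21 edits a chloroplast NDH transcript. LEA4-5 was most like the dehydrin gene RAB18 (r = 0.917), which rose by 1.02 ± 0.23 (limma adjusted p = 0.00156), then AT3G22550 (0.915) and AT1G77580 (0.899). RD20 came closest to AT1G12810 (0.917), AT1G29200 (0.912) and AHP4 of the cytokinin phosphorelay (0.900). For GOLS1 these were AT5G58375 (0.940), MES5 (0.914) and AT4G23885 (0.910).

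RD22 was most like DL1B (0.915), the aquaporin family gene NIP1;2 (0.893) and HYP1 (0.884). ERD7 was closest to PEPR1, a receptor of danger peptides (0.960), AT3G54200 (0.920) and the DREB-type factor gene DDF2 (0.915). GOLS2 came closest to AT4G01280 (0.896), AT5G43150 (0.862) and NAC089 (0.854). LEA14 was most like FD (0.900), AT2G07723 (0.896) and the mitochondrial locus ATMG00180 (0.895). LEA7 matched CUC3 (0.892), AT4G09890 (0.888) and GASA3 (0.888), and RD29B matched AT2G21110 (0.862), AGP2 (0.846) and AT5G55660 (0.821).

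Among the 10 genes themselves the group means were most alike for LEA7 and LEA4-5 (r = 0.872) and for ERD7 and DAA1 (0.811). The first pair was near the floor on most arrays, with group means of only 4.03 to 4.40 for LEA7 and 4.12 to 4.36 for LEA4-5, and the high means hold the single dry arrays named above. GOLS2 and RD22 (0.741), RD20 and RD22 (0.729) and LEA14 and ERD7 (0.713) followed among the pairs not involving DAA1. GOLS1 and GOLS2 were less alike (0.327). The most opposed pair was GOLS1 and DAA1 (-0.632).

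Related genes from textbook lists moved in both directions under drying, and their counts stand beside 12.2% of all loci called up, 11.5% called down and 23.7% called in either direction. Of 31 other LEA genes, 4 rose and 1 fell (16.1% called, below the share of all loci), and 19 were near the floor on all arrays; the median log2 change was 0.0019. UNE15 rose by 0.40 ± 0.07 and DI21 by 1.34 ± 0.32, while SAG21, of the same small LEA group as DI21, fell by 0.56 ± 0.12 (SE). COR15A (1.06 ± 0.29), a chloroplast protein that protects membranes in the cold, and AT2G23120 (0.26 ± 0.09) complete the count and were named after their values were seen. The 5 changes had limma adjusted p between 4.24e-05 and 0.0319.

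Of 17 other RD and ERD genes 16 were in the table, and 0 rose and 2 fell by limma (12.5% called, below the share of all loci). At an unadjusted p under 0.05 there were 1 and 4 of them, where 34.1% of all loci were. RD2 fell by 0.49 ± 0.08 and the dehydrin gene ERD14 by 0.47 ± 0.09 (SE); the list's median was -0.04. Of 13 other genes listed for the raffinose pathway, 0 rose and 3 fell, with 0 and 3 at an unadjusted p under 0.05. These 23.1% are close to the share of all loci. They were the raffinose synthase gene AT5G40390, listed as SIP1 (-0.55 ± 0.09, limma adjusted p = 2.81e-05), GATL10, which was once numbered among the galactinol synthases (-0.36 ± 0.10), and the cold-induced GOLS3 (-0.46 ± 0.16). The median of this list was -0.0024.

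Of 21 abscisic acid and osmotic response markers 19 were in the table, and 7 rose and 3 fell (52.6% called, against 23.7% of all loci), with a median of -0.01. LTP3 (2.60 ± 0.35) and LTP4 (3.04 ± 0.41), lipid transfer proteins, rose, and ERD14, also in the list above, fell. RAB18 (1.02), HB-7 (0.68), LTI30 (0.63), HAI1 (0.28) and COR15A, also counted among the LEA genes, complete the rises. NAC3 (-0.70) and HB-12 (-0.58) complete the falls of this list. HB-7, LTI30, HAI1, NAC3 and HB-12 were named after their values were seen. Of 12 listed transcription factors that act on such genes, 11 were in the table, 1 rose and 4 fell (45.5% called), with a median of -0.05. DREB2A, a drought-induced activator, rose by 0.72 ± 0.15 (SE), whereas ABF4, of the factors that bind abscisic acid response elements, fell by 0.75 ± 0.13. MYB2 fell by 0.31 ± 0.07, and MYC2 differed by 0.23 ± 0.11 and did not pass (limma adjusted p = 0.131). ABF3 (-0.57 ± 0.13) and ABI5 (-0.28 ± 0.10) complete the falls. These 2 and MYC2 were named after their values were seen.

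Close relatives of single members were few. Of 4 measured caleosin genes beside RD20, 0 were called and 0 were under an unadjusted p of 0.05; 3 were near the floor on all arrays. The smallest p there was that of AT1G23240 (-0.04 ± 0.03, SE; limma adjusted p = 0.298). Of 4 BURP genes beside RD22, PG2 rose by 0.33 ± 0.09 (SE; limma adjusted p = 0.0061). Of 3 measured relatives of ERD7, AT4G35985 rose by 0.59 ± 0.14 and AT3G51250 fell by 0.29 ± 0.07 (SE). Of 2 measured relatives of DAA1, 0 were called and 0 were under an unadjusted p of 0.05. AT4G24860 had the smaller p (0.02 ± 0.03, SE; limma adjusted p = 0.66).

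**Figure D4:**
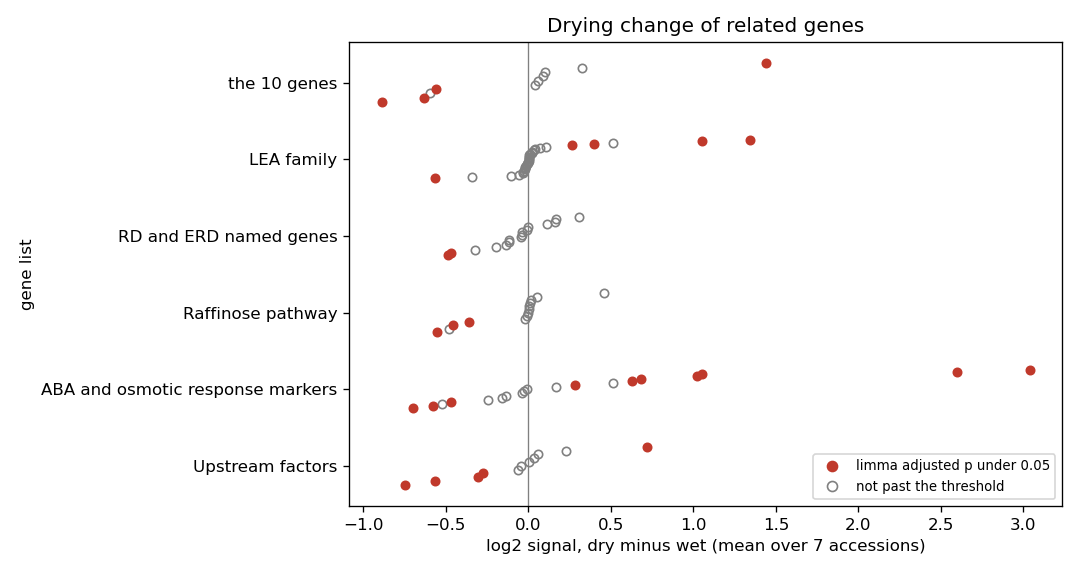
Drying change (dry minus wet log2 signal, mean over 7 accessions) of the 10 genes and of 5 related lists, with 1 point a gene; filled red points passed limma's adjusted p threshold and open grey points did not. The abscisic acid and osmotic response markers reach from -0.70 to 3.04, and most other LEA genes lie close to 0.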

How the data were processed

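Biotin-labelled cRNA of rosette leaves was hybridised to oligonucleotide arrays, per the labels' protocols. The authors deposited 1 log2 value per locus and array; that the scale is log2 was inferred from the values. The submitters' processing notes list RMA and MAS5, with no role or version for either. The sources used here do not say which probes were filtered, which genome build was used or how probes with sequence differences between accessions were treated, so a low value in an accession can also come from poor hybridisation. No coordinates or sequences are given, since the build is not named. Array medians lay between 5.66 and 5.79. Precision is limited by how many arrays there are.

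Values were used as deposited, with 0 columns of other samples. Of the loci, 20972 matched a gene table of assembly TAIR10.1, used for names and for neighbouring genes only. No member shared its values with another locus. Limma 3.58.1 in R 4.3.3 was fitted with a mean for each of the 14 groups over all 41 arrays (27 residual degrees of freedom), with contrasts for drying, drying within accessions, the interaction and accession levels. Two-sided p-values were corrected by the Benjamini-Hochberg procedure for all loci tested (threshold 0.05), and the fit was tested on simulated data. Related pairs were compared with an exact sign-flip permutation test over accessions, adjusted over 3 pairs. The design text calls the replicates biological, without saying more of their source. Same-numbered dry and wet arrays of an accession deviated together at r over 0.1 in 10 of 20 pairs, so the number was not taken as a pairing. The members and lists were chosen with earlier results of these data known. Named genes are all members, RD29A, the 3 loci most like each member, and up to 3 called genes with the smallest p per list, or the smallest p where none was called. COR15A, AT2G23120, HB-7, LTI30, HAI1, NAC3, HB-12, ABF3, ABI5 and MYC2 fall outside this rule and were named after their values were seen. Promoter motifs were planned and not analysed here.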

Additional observations from a re-analysis of the deposited data

How the results depend on the processing

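Depth is not known for arrays; LEA7, LEA4-5 and wet DAA1 lay near the floor, which hides falls and understates rises. DAA1, RD20 and RD22 kept their drying calls in all 56 other settings, GOLS1 in 54. The 4 drying calls became 7 (3 up, 4 down) with array weights, 5 with the additive model and between 3 and 5 when single arrays were left out. The replicate block gave 4 drying calls, 2 calls within accessions and 1 accession effect, and changed no call. It fitted replicate effects shared by all accessions, so it cannot test a pairing within an accession. The 2 calls within accessions became 4 with array weights (1 up, 3 down), 0 when each accession was fitted on its own arrays, 1 without Bil-5, Eden-1 or Tamm-2, 1 without the 3 arrays of low weight (chosen after the data were seen), and between 1 and 3 without single arrays. DAA1 in Bil-5 stayed called in 54 of 54 settings of the shared fit. The interaction calls stayed at 0 in all 55 settings. The 1 accession effect was the least settled count: 5 with array weights, 3 without the lowest 25% of loci, without Tamm-2 or without the low-weight arrays, 2 with quantile normalization, median centring, trend and robust eBayes, and without Ull2-5 or Ag-0, 0 without Eden-1, Got-22 or Omo2-3 and on wet or dry arrays alone, and between 0 and 3 without single arrays. The paired gene differences stayed short of the threshold in all settings; GOLS1 minus GOLS2 lay between -0.14 and 0.10, and it changed sign without reaching the threshold. The cause of these shifts was not tested.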

Other observations

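A few arrays were the extreme of their group for most of the 10 genes, a pattern noticed after the values were seen and given without a test. Got-22 dry replicate 3 was the lowest of its 3 arrays for 8 of the 10 genes, while it was lowest at 39.5% of all loci. Its LEA14 signal was 10.52, against 11.66 and 11.70 in the other dry arrays, and its ERD7 signal 9.71, against 11.14 and 11.21. In dry Tamm-2, replicate 2 was the lowest for 8 of 10 genes (28.3% of all loci) and replicate 1 the highest for 8 of 10 (35.3% of all loci). LEA14 read 10.39 in that replicate 2 and 11.81 in replicate 1, a wider gap than between any dry and wet group means of LEA14. For GOLS2 the same arrays read 6.13 and 9.50.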
